A study of Sus scrofa with 9 samples.

Results

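A small set of 39 genes in sow mammary tissue had its lowest signal just after farrowing, below both late pregnancy and established lactation. The tissue came from 6 Large White sows, biopsied on day -17 (late pregnancy), day 1 and day 17 relative to farrowing, the first and last with a margin of 2 days. Each Affymetrix porcine GeneChip received RNA mixed from 2 sows in equal volumes, so every day has 3 pools and the study 9 arrays. No treatment separated the days, and diets were the usual corn and soybean meal feeds. Pools 1 to 3 carry the numbers of the labels, and values are given in that order.

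The genes were chosen from these same signals. Among probe sets annotated with a single symbol, the one of highest average log2 signal stood for its gene, which gave 6765 genes, and 4844 of them had a signal of at least 100 in all 3 pools of day -17 and all 3 of day 17, called bright genes here. A gene was taken if its mean log2 signal on day 1 lay at least 0.6 below the means of both other days and all 3 of its day 1 values lay below the other 6. That held for 42 genes, of which 3 were left out by the first letters of their symbols (SLC2A4RG, SLC26A11 and CXCL9), leaving 39, or 0.884% of the 4411 bright genes with symbols not so left out. The differences of day 1 from the other days are therefore given as a description, without tests. The comparison of day 17 with day -17 was not itself a condition, although a gene whose day 1 level lay between those of the other days could not be taken. Folds are ratios of the antilogs of mean log2 signals.

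Around farrowing the mammary gland passes from growth and early differentiation to copious secretion. Progesterone falls, prolactin and glucocorticoids act on the alveolar epithelium, and colostrum is followed by milk. Biopsies also hold fat, connective tissue, vessels and immune cells besides epithelium. In bulk tissue fewer cells of a type and less RNA per cell cannot be told apart. The roles given below are those known for the human or mouse proteins.

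The signals are linear intensities that had been scaled to the same trimmed mean on every array (500.088 to 500.112), so every difference below is relative to that mean. A second scaling, to the 21 probe sets of spiked E. coli transcripts, lowers every log2 difference by 0.43 for day 1 against day -17, by 0.87 for day 17 against day 1 and by 1.30 for day 17 against day -17. With it the day 1 mean lay below that of day -17 in all 39 genes. The rule fixed this in advance, as this scaling only lowers that difference further. The day 17 mean lay above that of day 1 in 19 genes and below it in 20. Within a day, the Spearman correlation between pools across all probe sets was 0.954 to 0.976. Of 17 listed luminal epithelial markers 12 were tested, and their summed signal was 19051 to 39032 on day -17, 34847 to 55403 on day 1 and 53574 to 58680 on day 17. The 11 tested of 15 adipocyte markers summed to 14115 to 40067 on day -17, 22951 to 36123 on day 1 and 39133 to 39899 on day 17. Such a sum follows its brightest markers. The median log2 difference of these 11 was -0.79 for day 1 against day -17 and -0.27 for day 17 against day 1. For day 17 against day -17 it was -1.25, against -0.032 over all 5670 genes tested. The ratio of the 3′ to the 5′ actin control probe set, a measure of RNA integrity, was 7.01 to 7.26 on day -17, 8.39 to 9.57 on day 1 and 14.5 to 15.9 on day 17. The same ratio for the GAPDH control was 2.38 to 3.06 on day -17, 2.25 to 2.32 on day 1 and 1.77 to 1.98 on day 17, in the opposite direction to actin. For the EF1A control it was 1.26 to 1.43 on day -17, 1.31 to 1.55 on day 1 and 1.81 to 1.99 on day 17, higher on day 17 as for actin. The part of cell makeup and RNA integrity in the results was not tested. No signal of these lists was at 0.

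The 39 genes came from many pathways. By known role, 12 encode metabolic enzymes or, in 1 case, a peroxisome assembly factor, 5 act in glycosylation or membrane traffic, 11 in gene regulation, protein turnover or the cell cycle, 4 in immunity, and 7 have other or unassigned roles. The median log2 difference over the 39 was -0.86 for day 1 against day -17 (from -2.58 to -0.60) and 0.87 for day 17 against day 1 (from 0.60 to 2.34). Over all 4844 bright genes the same medians were 0.0040 and -0.029. The median of the mean signals on day -17 was 548 for the 39 genes and 857 for all bright genes, so the chosen genes were of moderate brightness.

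**Figure D1:**
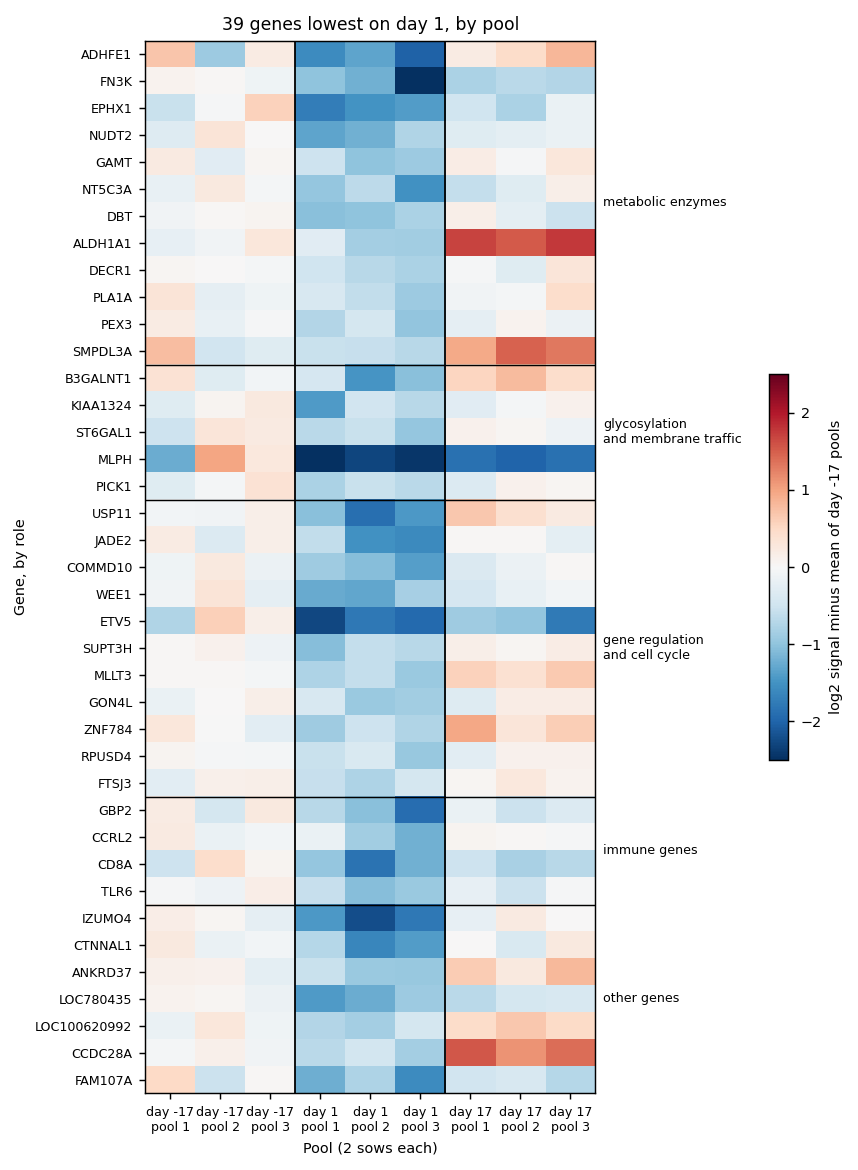
Heat map of the 39 genes (rows, grouped by role) in the 9 pools (columns, by day). Colour gives the log2 signal minus the mean of the gene's 3 day -17 pools, with the colour scale ending at the same distance either side of 0; the day 1 columns are the lowest in every row, and ALDH1A1, CCDC28A and SMPDL3A stand out in red on day 17.

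Among the metabolic enzymes, the smaller of the distances of day 1 from the other days was largest in ADHFE1, a mitochondrial transhydrogenase that oxidizes hydroxybutyrate. ADHFE1 had signals of 1476, 488 and 1051 on day -17, 306, 367 and 225 on day 1 and 1052, 1255 and 1626 on day 17 in pools 1 to 3. Pool 2 was the low one on day -17, and the values of day 17 and day -17 overlapped. The gene was 3.11-fold below day -17 on day 1, and 4.40-fold above day 1 on day 17. EPHX1, the microsomal epoxide hydrolase that opens reactive epoxides, had signals of 555, 797 and 1220 on day -17, 245, 291 and 309.5 on day 1 and 574, 469 and 726 on day 17. All 3 day 1 pools were close together, whereas the day -17 pools differed among themselves by more than the day 17 pools did. EPHX1 was 2.90-fold below day -17 on day 1, and 2.07-fold above day 1 on day 17.

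FN3K phosphorylates sugars bound to proteins in early glycation. Its signals were 243, 233 and 212 on day -17, 115, 99.4 and 20.0 on day 1 and 132, 144 and 137 on day 17. The value of day 1 pool 3 was far below the other pools, and all 3 day 17 values lay under those of day -17. With all pools FN3K was 3.75-fold below day -17 on day 1, and 2.25-fold above day 1 on day 17; without day 1 pool 3 these folds were 2.14 and 1.29. NUDT2, which hydrolyses dinucleoside polyphosphates, had signals of 369.9, 581 and 465 on day -17, 186, 201 and 275 on day 1 and 374, 393 and 416 on day 17. GAMT, the enzyme of the last step of creatine synthesis, had 735, 512 and 649.7 on day -17, 439.5, 309.8 and 334 on day 1 and 710.1, 613 and 760.4 on day 17. In both genes day 17 and day -17 overlapped, and in GAMT pool 1 was the highest on day 1. NT5C3A, a pyrimidine nucleotidase, had 562, 757 and 625 on day -17, 329, 406 and 225 on day 1 and 425, 518 and 710.1 on day 17. Its day 1 pool 2 came within 0.066 log2 of the nearest value of the other days. DBT, the acyltransferase core of the complex that breaks down branched-chain keto acids, had 493, 536 and 554 on day -17, 255, 262 and 304 on day 1 and 582, 447 and 362 on day 17. Its day 1 pools lay close together, and its day 17 pools were spread more widely.

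ALDH1A1 makes retinoic acid from retinaldehyde and was among the brightest of the 39 genes. Its signals were 4433, 4758 and 6213 on day -17, 4170, 2800 and 2784 on day 1 and 16460, 14668 and 17338 on day 17. The day 1 dip was shallow, 1.59-fold, and day 17 lay far above both earlier days. SMPDL3A, a secreted phosphodiesterase related to acid sphingomyelinase, had 864, 366 and 414 on day -17, 343, 339.9 and 314 on day 1 and 982, 1416 and 1268 on day 17. Its day -17 pool 1 was high and the other day -17 pools were only slightly above those of day 1. DECR1, which reduces double bonds during the oxidation of unsaturated fatty acids, averaged 1771 ± 50.3 on day -17, 1124 ± 119 on day 1 and 1785 ± 374 on day 17 (SD, n = 3 pools per day). The peroxisome assembly factor PEX3 averaged 778 ± 107 on day -17, 475 ± 90.3 on day 1 and 729.6 ± 82.9 on day 17. PLA1A, a phospholipase that acts on phosphatidylserine, averaged 356 ± 74.6 on day -17, 227 ± 38.8 on day 1 and 382 ± 80.8 on day 17. These 3 genes were 1.56-fold to 1.65-fold lower on day 1 than on day -17, and their day 17 values overlapped those of day -17.

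**Figure D2:**
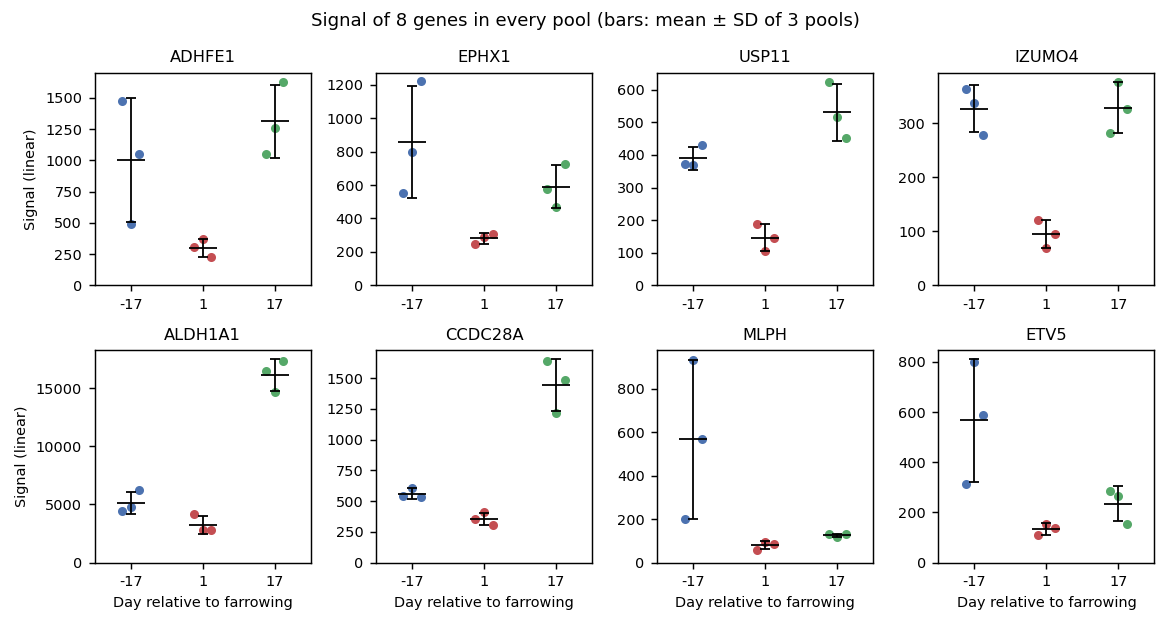
Linear signal of 8 genes in each pool against day relative to farrowing; coloured points are pools and black bars the mean ± SD of 3 pools. The upper row shows genes for which limma called no difference between day 17 and day -17, and the lower row the 2 genes with the largest called difference between these days in each direction, higher on day 17 for ALDH1A1 and CCDC28A and lower for MLPH and ETV5.

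Genes listed with DECR1, DBT and PEX3 in their pathways were set beside them. Of 18 other measured genes of mitochondrial fatty acid oxidation, limma called 2 higher and 2 lower on day 1 than on day -17 at an adjusted p of 0.05, and 1 higher and 2 lower on day 17 than on day 1. Their median log2 differences were -0.050 and -0.025. Over all 5670 genes tested, 15.3% were called higher and 10.4% lower in the first of these comparisons, and 8.02% and 8.57% in the second, with medians of -0.00082 and -0.035. Of the 15519 tested probe sets, 24.1% were called in the first and 13.6% in the second, in either direction. ACADM, the medium-chain acyl-CoA dehydrogenase, rose on day 1 (log2 difference 1.23 ± 0.15, adjusted p = 0.000584), and HADH and HADHA, enzymes of later steps, fell (-0.85 ± 0.20, adjusted p = 0.0124, and -0.79 ± 0.16, adjusted p = 0.00759). Neither HADH nor HADHA was called higher again on day 17. Of 14 other genes of branched-chain amino acid breakdown, 0 were called higher and 1 lower on day 1 than on day -17 (2 and 1 at an unadjusted p under 0.05), and 3 higher and 0 lower on day 17 than on day 1 (5 and 1 unadjusted). The gene called lower was ACADSB (-1.78 ± 0.30, adjusted p = 0.0027), which had a mean signal of 123 on day 17 against 251 on day 1. The medians of the 14 genes were -0.21 and 0.40. BCKDHB, a subunit of the same complex as DBT and named after its values were seen, averaged 1160 ± 220.3 on day -17, 1195 ± 228 on day 1 and 1994 ± 266 on day 17. Its day 1 mean was close to that of day -17.

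Of 13 other peroxisome genes, 1 was called higher and 1 lower on day 1 than on day -17, and 1 higher and 0 lower on day 17 than on day 1 (3 and 0 at an unadjusted p under 0.05), with medians of 0.083 and 0.11. PEX14, part of the import machinery, rose on day 1 (0.95 ± 0.16, adjusted p = 0.0026), and PHYH, which starts the breakdown of phytanic acid, fell (-2.50 ± 0.51, adjusted p = 0.00689). Neither was called on day 17 against day 1 (adjusted p = 0.144 for PEX14 and 0.817 for PHYH). Over the 20 function lists together, 337 genes outside the 39 were tested, and limma called 37 of them lower on day 1 than on day -17 and 29 higher on day 17 than on day 1. Only SOD1, the cytosolic superoxide dismutase, was called in both. Over all 5670 genes tested, 41 (0.723%) were called in both, 25 of them among the 39 genes and 16 outside. The 39 genes had been chosen on these same differences, so their calls are left out of the list counts. The 0.723% does include them and is therefore not like for like with the lists.

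The genes of glycosylation and membrane traffic included the sialyltransferase ST6GAL1, which caps N-glycans with sialic acid. ST6GAL1 had signals of 891, 1559 and 1475 on day -17, 794, 859 and 651 on day 1 and 1369, 1315 and 1165 on day 17. Day -17 pool 1 was low and close to the day 1 values, and day 17 overlapped day -17. B3GALNT1, which makes the globoside core of glycolipids, had 488, 307 and 362 on day -17, 284, 137 and 184 on day 1 and 551, 656 and 517 on day 17. Its day 17 values all lay above those of day -17, with a log2 difference of 0.60 ± 0.27 (SE) that did not pass in limma (adjusted p = 0.0953). KIAA1324, an oestrogen-induced membrane protein of the endosome and lysosome, had 4332, 5539 and 6262 on day -17, 2006, 3825 and 3282 on day 1 and 4370, 5142 and 5736 on day 17. It was a bright gene on all 3 days, 1.81-fold below day -17 on day 1, and 1.72-fold above day 1 on day 17.

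MLPH, melanophilin, links Rab27 on vesicles to myosin motors. Its signals were 199, 932 and 569.6 on day -17, 58.7, 96.0 and 87.4 on day 1 and 129, 119 and 129 on day 17. The day -17 pools differed widely, pool 1 being the low one, whereas the day 17 pools were nearly equal and lay under all 3 of day -17. MLPH had the largest fold of the 39 genes between day 1 and day -17, 5.99-fold lower on day 1, but its day 17 mean was only 1.59-fold above day 1. PICK1, a scaffold that holds receptors and transporters in membrane traffic, averaged 649 ± 153 on day -17, 401 ± 32.9 on day 1 and 617 ± 102 on day 17. Its drop was among the 3 smallest that met the 0.6 limit.

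In gene regulation and protein turnover, USP11, a deubiquitinase of the nucleus, had signals of 371, 369 and 431 on day -17, 188, 106 and 144 on day 1 and 625, 515 and 453 on day 17. The groups were well apart: the highest day 1 value was 0.97 log2 below the lowest value of the other days, and all 3 day 17 values lay above those of day -17. USP11 was 2.74-fold below day -17 on day 1, and 3.71-fold above day 1 on day 17. JADE2, a subunit of a histone acetyltransferase complex, had 664, 454 and 642 on day -17, 377, 202 and 192 on day 1 and 588, 589 and 491 on day 17. COMMD10, a COMM domain protein of endosomal sorting and NF-kappaB control, had 478, 605 and 463 on day -17, 276, 246 and 198 on day 1 and 397, 462 and 522 on day 17. Both had overlapping values on day 17 and day -17, and in JADE2 day 1 pool 1 was the high one. WEE1, the kinase that holds cells before mitosis, had 699.7, 931 and 639 on day -17, 314, 304 and 421 on day 1 and 561, 655 and 712 on day 17. WEE1 was 2.18-fold below day -17 on day 1, and 1.87-fold above day 1 on day 17.

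ETV5, an ETS family transcription factor that responds to growth factor signalling, had signals of 313, 799 and 588 on day -17, 109, 154 and 138 on day 1 and 286, 265 and 155 on day 17. Day 17 pool 3 was only 0.0085 log2 above the highest day 1 value, and day 17 lay under all day -17 values. ETV5 was 4.0-fold below day -17 on day 1, and 1.72-fold above day 1 on day 17. MLLT3, a histone reader of transcription elongation complexes, had 388, 389 and 371 on day -17, 224, 254 and 202 on day 1 and 570.3, 499 and 601 on day 17. The pools of each day were close together, and the 3 days did not overlap. SUPT3H, a subunit of the SAGA coactivator, had 462, 487 and 412 on day -17, 218, 298 and 281 on day 1 and 498, 465 and 517 on day 17. GON4L, a nuclear corepressor protein, had 272, 309 and 337 on day -17, 231, 159 and 167 on day 1 and 243, 344 and 345 on day 17. In both the day 17 values overlapped those of day -17.

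ZNF784, a zinc finger protein, had 179.9, 147 and 124 on day -17, 80.7, 104 and 88.6 on day 1 and 291, 183 and 228 on day 17. All 3 day 17 values lay above those of day -17. The other 2 genes of this group act on RNA: RPUSD4, a mitochondrial pseudouridine synthase, averaged 183 ± 8.61 on day -17, 120.1 ± 22.5 on day 1 and 183 ± 25.8 on day 17, and FTSJ3, a factor of ribosomal RNA processing, averaged 993 ± 151 on day -17, 652 ± 74.4 on day 1 and 1083 ± 94.0 on day 17. FTSJ3 lay just inside the limit.

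Of the immune genes, GBP2, an interferon-induced GTPase, had signals of 417, 269 and 430.2 on day -17, 226, 175 and 97.3 on day 1 and 325, 253 and 287 on day 17. CCRL2, a chemokine receptor-like protein that binds without signalling, had 136, 104 and 110.5 on day -17, 104, 63.3 and 50.7 on day 1 and 122, 119 and 114 on day 17. In CCRL2 day 1 pool 1 differed from day -17 pool 2 by only 0.0012 log2, so its separation rested on that margin. CD8A, the coreceptor of cytotoxic T cells, had 144, 277 and 216 on day -17, 105, 57.4 and 88.8 on day 1 and 144, 116 and 128 on day 17, and its day 1 pools 2 and 3 were under 100. TLR6, which recognizes bacterial lipopeptides together with TLR2, averaged 223 ± 24.1 on day -17, 124 ± 22.1 on day 1 and 188 ± 33.0 on day 17. Day 17 and day -17 overlapped in GBP2, CCRL2 and TLR6, whereas in CD8A the day 17 values lay under all day -17 values, although the pool 1 values of these days were nearly equal.

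The T and NK cell markers were set beside CD8A. With CD8A, 5 of the 20 listed markers were tested, and their summed signal was 572 to 818 on day -17, 274 to 532 on day 1 and 486 to 567 on day 17. This sum includes CD8A, which was chosen for its low day 1 signal, so part of the low day 1 sum was set by the rule. Of the other 4, limma called 0 higher and 1 lower on day 1 than on day -17 and 0 in either direction on day 17 against day 1 (0 and 2, and 2 and 0, at an unadjusted p under 0.05). The medians of these 4 were -1.11 and 0.67. KLRK1, an activating receptor, was the gene called (-1.39 ± 0.39, adjusted p = 0.0295). CD3E, part of the T cell receptor complex and named after its values were seen, averaged 209 ± 68.9 on day -17, 114 ± 35.3 on day 1 and 151 ± 31.8 on day 17. Whether the number of T cells took part in the values of CD8A was not tested. Of 18 interferon-stimulated genes other than GBP2, limma called 0 in either direction in both comparisons with day 1 (0 higher and 2 lower on day 1 than on day -17, and 2 higher and 0 lower on day 17 than on day 1, at an unadjusted p under 0.05). The medians of the 18 were -0.17 and 0.31. The smallest p among them for day 1 against day -17 was that of TAP1, a peptide transporter of antigen presentation (-0.75 ± 0.33, adjusted p = 0.122).

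The remaining genes included IZUMO4, of the family of sperm-egg fusion proteins, which had the largest dip of all 39 when the smaller of the 2 distances is taken. Its signals were 364, 339 and 279 on day -17, 120.3, 69.5 and 94.9 on day 1 and 283, 378 and 327 on day 17. Day 1 lay far below both other days, by nearly the same fold: IZUMO4 was 3.51-fold below day -17 on day 1, and 3.53-fold above day 1 on day 17. CTNNAL1, a catenin-like protein, had 656, 497 and 530.4 on day -17, 342, 181 and 211 on day 1 and 563, 430.4 and 661 on day 17. Its day 1 pool 1 was the high one. ANKRD37, an ankyrin repeat protein induced by hypoxia in human cells, had 409, 402 and 318 on day -17, 255, 196 and 195 on day 1 and 583, 442 and 656 on day 17. Its day 17 values all lay above those of day -17.

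CCDC28A, a coiled-coil protein, had signals of 545, 609 and 530.2 on day -17, 351, 409 and 309 on day 1 and 1637, 1214 and 1481 on day 17. Its days did not overlap at all, and day 17 lay 4.05-fold above day 1. FAM107A, an actin-binding protein, had 1004, 491 and 729.8 on day -17, 304, 418 and 239 on day 1 and 509.9, 539 and 432 on day 17. Day -17 and day 17 overlapped in FAM107A. The uncharacterised loci LOC780435 and LOC100620992 were 2.29-fold and 1.59-fold lower on day 1 than on day -17. LOC780435 had signals of 613, 601 and 525 on day -17, 216, 243 and 308 on day 1 and 364, 427 and 441 on day 17. It stayed under its day -17 values on day 17, and LOC100620992 lay above its own day -17 values.

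**Figure D3:**
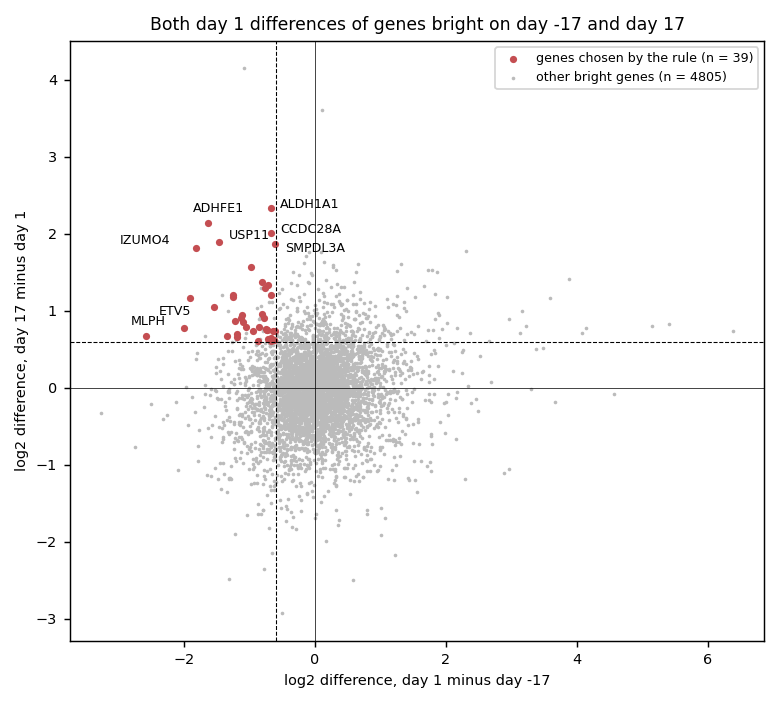
Each point is 1 of the 4844 bright genes, placed by its log2 difference of day 1 minus day -17 (x axis) and day 17 minus day 1 (y axis); red points are the 39 chosen genes and dashed lines the limits of 0.6. The chosen genes fill the upper left corner, most of them near the limits, with a median of -0.86 on the x axis and 0.87 on the y axis.

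Most of the 39 genes lay near the limits that chose them. The smaller of the 2 distances had a median of 0.74 log2, and 7 genes were at least 1 log2 below both days: IZUMO4, ADHFE1, USP11, CTNNAL1, JADE2, FN3K and EPHX1. Without its lowest day 1 pool FN3K lay only 0.37 log2 below day 17. The rest of these genes kept both distances at 0.95 or more without theirs. Of the genes with smaller distances, some fell under 0.6 in this way, such as CD8A (0.42) and MLPH (0.46). Others did not, such as WEE1 (0.82). The genes just inside were FTSJ3, TLR6 and PICK1, with smaller distances of 0.60, 0.60 and 0.61. Just outside were RANGRF, PIK3IP1 and WBP2, with 0.59, 0.58 and 0.57. Of the 4411 bright genes with symbols not left out, 99 others had all 3 day 1 values lowest with a smaller distance, and 15 had the distance but overlapping values. A mirrored rule, for a peak on day 1, gave 66 genes. Its brightness limit was set on the pools of day 1, not on those of day -17 and day 17. The 66 and the 39 are therefore not like for like.

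The 3 day 1 pools were not alike in these genes. Pool 3 held the lowest day 1 value in 18 genes, pool 2 in 11 and pool 1 in 10, and pool 1 held the highest in 18. The median log2 difference of the 39 genes from the mean of their 6 other values was -0.84 in pool 1, -0.97 in pool 2 and -1.15 in pool 3. Over all bright genes the same medians were -0.012, 0.037 and 0.053. Without day 1 pool 1 the rule gave 78 genes, 35 of them among the 39, and without day 1 pool 2 it gave 59, 34 of them among the 39. Without day 1 pool 3 it gave 29, 26 of them among the 39.

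A comparison that the rule did not set was that of day 17 with day -17, which asked whether the signal in established lactation was back at its level of late pregnancy. The median log2 difference over the 39 genes was -0.0099, near the -0.016 over the 4844 bright genes. Of the 39, 21 lay within 0.3 log2 of equality, a share that was not counted over the bright genes. In limma, 5 were called higher and 3 lower on day 17 at an adjusted p of 0.05, that is 20.5% of the 39. Of the 4844 bright genes 24.3% were called higher and 23.3% lower, in all 47.6%, and of all 15519 tested probe sets 46.5%. The share among the 39 is below this background, but the rule itself leaves out genes with a steady rise or fall over the 3 days, so the shares are not like for like. All 3 day 17 values lay above those of day -17 in 9 genes and below them in 5, against 31.1% and 30.2% of the bright genes.

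The called rises were those of ALDH1A1 (log2 difference 1.67 ± 0.18, SE, adjusted p = 8.50e-05 in limma), CCDC28A (1.35 ± 0.16, adjusted p = 0.000158), SMPDL3A (1.25 ± 0.29, adjusted p = 0.00555), ANKRD37 (0.56 ± 0.20, adjusted p = 0.0418) and MLLT3 (0.54 ± 0.15, adjusted p = 0.0166), each with n = 3 pools per day. In all 5, every day 17 pool lay above every day -17 pool. With the E. coli scaling none of these 5 was called higher: ALDH1A1 stood at 0.36 (adjusted p = 0.0846) and CCDC28A at 0.051 (0.780), while SMPDL3A turned to -0.054 (0.875), ANKRD37 to -0.74 (0.00677) and MLLT3 to -0.77 (0.00108). MLLT3 missed the threshold when pool 3 of day -17 (adjusted p = 0.0523) or of day 17 (0.0581) was left out. ANKRD37 was called in 12 of 19 alternatives, and its calls were lost without any of day -17 pools 1 to 3 (adjusted p = 0.0545, 0.0634 and 0.142), without day 17 pool 1 or 3 (0.107 and 0.141) and with no filter on dim probe sets (0.0586).

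The called falls were those of MLPH (-1.91 ± 0.47, adjusted p = 0.00754 in limma), ETV5 (-1.22 ± 0.35, adjusted p = 0.0167) and LOC780435 (-0.50 ± 0.17, adjusted p = 0.038). In these 3 genes every day 17 pool lay below every day -17 pool. The fall of MLPH was called in all 18 alternatives that tested it, while its size ranged from -1.42 to -2.54 outside the E. coli scaling. ETV5 missed the threshold when pool 2 or 3 of day -17 (adjusted p = 0.0651 and 0.0555) or pool 3 of day 17 (0.0646) was left out. LOC780435 was called in 10 of 19 alternatives and was lost without any 1 of the 6 arrays of these days (adjusted p from 0.0517 to 0.119), after quantile normalization (-0.34, adjusted p = 0.144), after median centring (-0.42, 0.0902) and with no filter on dim probe sets (0.0548).

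For the genes that were not called, the size of the difference and its error can be given. IZUMO4 differed by 0.0069 ± 0.24 log2 (SE) between day 17 and day -17, DECR1 by -0.0086 ± 0.16, ST6GAL1 by 0.011 ± 0.21, GON4L by 0.011 ± 0.22 and RPUSD4 by -0.0099 ± 0.22. A further probe set of ST6GAL1, not used by the rule, was called higher on day 17 (0.74 ± 0.24, adjusted p = 0.0285 in limma). That of RPUSD4 was not called (-0.38 ± 0.26, adjusted p = 0.25), and those of GON4L were not tested. FN3K (-0.73 ± 0.55) and CD8A (-0.67 ± 0.32) had the largest negative differences without a call (adjusted p = 0.289 and 0.105), and ZNF784 the largest positive one (0.63 ± 0.25, adjusted p = 0.0644). A p that misses the threshold does not show equal levels on the 2 days.

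**Figure D4:**
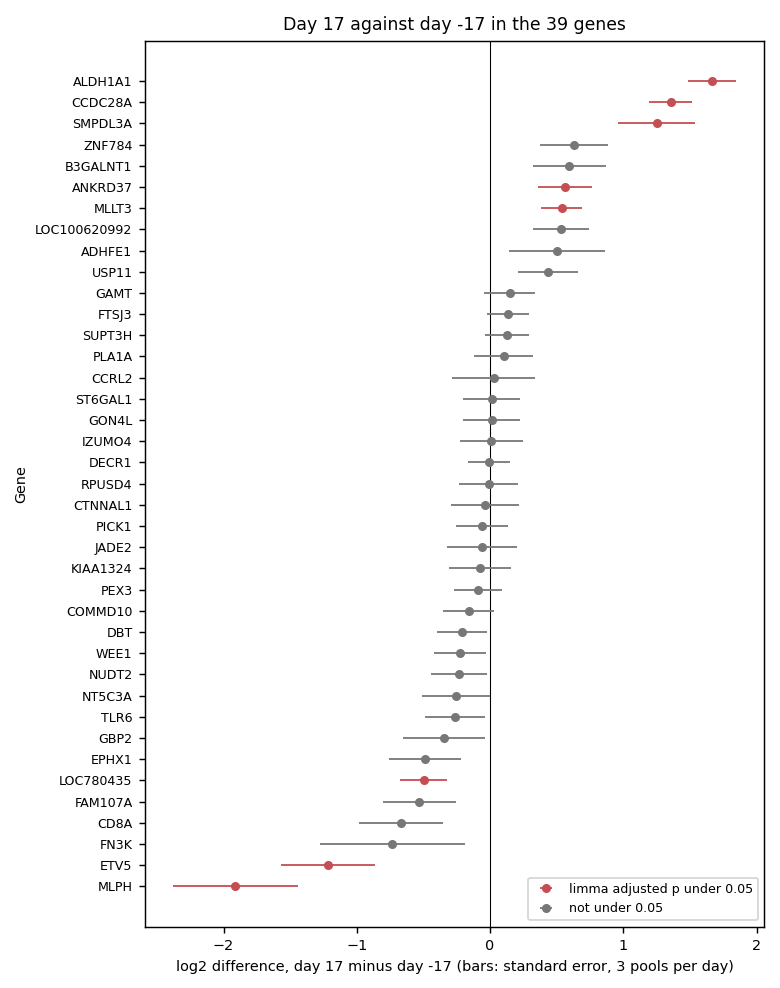
Log2 difference of day 17 minus day -17 (x axis) for each of the 39 genes (y axis), with bars for the standard error in limma over 3 pools per day. Red points have an adjusted p under 0.05: ALDH1A1, CCDC28A, SMPDL3A, ANKRD37 and MLLT3 to the right of 0, and LOC780435, ETV5 and MLPH to the left.

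Other probe sets of the same genes, which the rule did not use, were set beside the chosen ones. Of the 39 genes 11 had further probe sets of the same symbol, 13 in all, measured on the same RNA with other probes and dimmer on average. In 7 of the 13 the day 1 mean was the lowest of the 3 days, which is 53.8%, against 25.5% of the 3304 such further probe sets of all genes. In 0 of the 13 were all 3 day 1 values below the other 6, against 61 of the 3304 (1.85%). Full separation of day 1 was a condition for the chosen probe sets, so it is no result for them. With the others, 0 of 13 is near the share of 1.85%.

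The 2 probe sets of KIAA1324 differed in established lactation. The other probe set had signals of 2401, 2903 and 2686 on day -17, 288, 657 and 452 on day 1 and 344, 513 and 684 on day 17. The day 1 values were far below those of day -17 (log2 difference -2.59), and day 17 stayed at the day 1 level (0.17). Between day 17 and day -17 this probe set fell by 2.43 ± 0.31 log2 (SE, adjusted p = 0.000198 in limma), whereas the chosen one differed by -0.074 ± 0.23 (adjusted p = 0.813). SUPT3H had 2 other probe sets, the brighter with 609.5, 495 and 412 on day -17, 291, 285 and 258 on day 1 and 234, 308 and 248 on day 17. It matched the chosen probe set in direction on day 1 (-0.85) but not on day 17, when it lay at the day 1 level (-0.088). Its log2 difference between day 17 and day -17 was -0.93 ± 0.19 (SE, adjusted p = 0.00286 in limma). That of the chosen probe set was 0.12 ± 0.17 (adjusted p = 0.563).

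The other probe set of ETV5 had 91.9, 169.7 and 121 on day -17, 58.4, 71.3 and 65.2 on day 1 and 56.2, 116 and 48.2 on day 17. It was lower on day 1 than on day -17 (-0.93) and lay near its day 1 level on day 17 (0.068). Between day 17 and day -17 it differed by -0.87 ± 0.40 log2 (SE, adjusted p = 0.0985 in limma), with overlapping values. It was thus not called, unlike the chosen probe set, though the direction was the same.

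The other probe set of ALDH1A1 had 248, 338 and 420.5 on day -17, 293, 232 and 166 on day 1 and 1434, 1125 and 1247 on day 17. Only day 1 pool 1 kept it from a full separation, as it lay above day -17 pool 1, and the rise to day 17 was as large as with the chosen probe set (log2 difference 2.49 against day 1). RPUSD4 had 189, 177 and 174 on day -17, 93.0, 106 and 138 on day 1 and 131, 108 and 186 on day 17 with its other probe set, and FTSJ3 had 545, 699 and 742 on day -17, 529, 752 and 713 on day 1 and 551, 552 and 503 on day 17. The RPUSD4 values were low on day 1 with overlap on day 17, and those of FTSJ3 showed no dip. For MLLT3 the other probe set had 131, 84.7 and 71.5 on day -17, 114, 112 and 91.7 on day 1 and 296, 325 and 484 on day 17. There day 1 was slightly above day -17 on average (0.19), and the high level on day 17 was shared with the chosen probe set (1.77 against day 1).

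**Figure D5:**
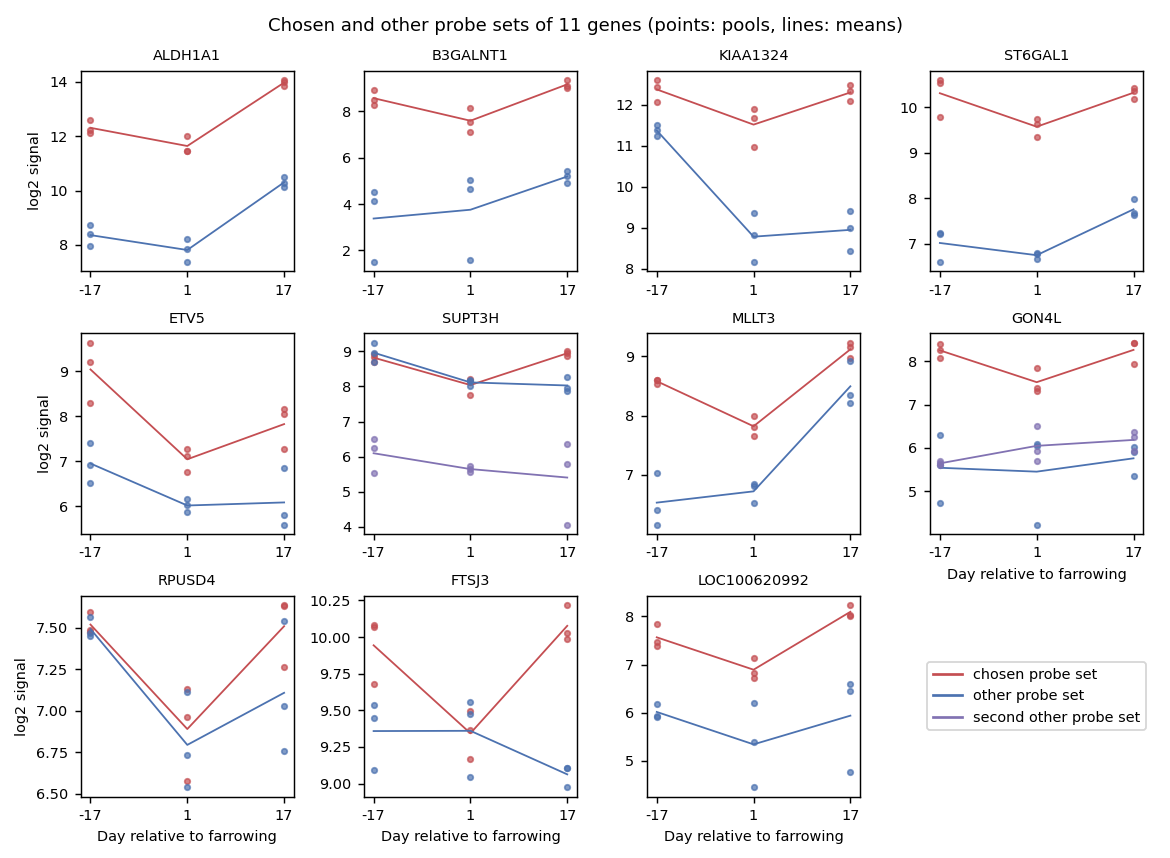
Log2 signal (y axis) against day relative to farrowing (x axis) for the 11 genes with several probe sets; points are pools and lines join day means, red for the chosen probe set and blue or purple for the others. In none of the 13 other probe sets do all 3 day 1 points lie below the 6 others, and in KIAA1324, SUPT3H and ETV5 an other probe set stays near its day 1 level on day 17.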

How the data were processed

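Signals are intensities deposited by the authors: linear values for each probe set, computed by MAS5 according to the submitters' processing notes (version not given in the sources used here) and scaled to a common trimmed mean. With 3 pools per day, the number of arrays limits the precision. Of 24123 probe sets, 124 Affymetrix controls were left out, and 15519 of the others, all 39 chosen ones included, were tested because 3 or more arrays put them at or over that array's 40th percentile. By GEO's platform annotation 10099 probe sets have 1 symbol, 198 several and 13826 none. All 39 symbols match RefSeq by gene ID.

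Log2 signals without a pseudocount were fitted with limma 3.58.1 in R 4.3.3 (day as the only term, all 9 arrays, intensity trend), with Benjamini-Hochberg adjustment over all tested probe sets, two-sided. Exact permutation of 3 against 3 reaches 0.1 at best and was not used. The code was tested on simulated data. The genes, lists, role groups and naming rule (the 24 largest smaller drops, called genes, list members and genes with other probe sets) were chosen with earlier results of these data known. From each list the rule named up to 2 called falls and 1 called rise on day 1, or the smallest p.

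The labels do not tell if equal pool numbers mean equal sows. Deviations from day means of same-numbered pools correlated at 0.105 to 0.130 for day 17 and day -17 (other pairs -0.0739 to -0.0421). The range was 0.0960 to 0.107 for day 17 and day 1 (other pairs -0.0768 to -0.0268). For day 1 and day -17 it was 0.235 to 0.506 (other pairs -0.387 to 0.113). Same-numbered pools may thus be paired, and the number entered alternatives as a block. Unless an alternative is named, p-values come from the fit without a block. P-values set a difference between days against the spread between pools of 2 sows, not between single sows. The tables given hold no sequences, so none are shown.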

Additional observations from a re-analysis of the deposited data

How the results depend on the processing

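The 39 genes became 23 after median centring, all of them among the 39, 27 after quantile normalization (25 among them), 8 with the E. coli scaling (6 among them: ADHFE1, ALDH1A1, CCDC28A, IZUMO4, SMPDL3A and USP11) and 7 with a distance of 1 log2 in place of 0.6. A pseudocount of 16 gave 32, averaging the probe sets of a gene 29, and brightness limits of 50 and 200 gave 45 and 30. Leaving out single arrays gave 29 to 78, the highest without day 1 pool 1. Of the 39 genes 8 were called for day 17 against day -17, 4 to 9 when an array was left out, with 4 without day -17 pool 3 and 4 without day 17 pool 3, and 35 with the E. coli scaling, 0 higher and 35 lower. Outside that scaling the other alternatives gave 6 to 11. In that scaling SMPDL3A turned to -0.054, MLLT3 to -0.77 and ANKRD37 to -0.74. In 151 checks of the 8 called genes 126 kept the call and the direction, 22 kept the direction only and these 3 turned.

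Probe sets called numbered 3736 for day 1 against day -17, 2116 for day 17 against day 1 and 7223 for day 17 against day -17. With the E. coli scaling these were 7085, 11114 and 13156, of which 814, 112 and 471 were higher, as that scaling lowers every difference by a fixed amount. Leaving out single arrays gave 2110 to 4424, 1049 to 2109 and 5887 to 7639. For day 1 against day -17, 1860 were higher and 1876 lower, after median centring 2282 and 1251. With the pool number as a replicate block, 8 (fixed) and 9 (random) of the 39 genes were called, and the block ended none of the 8 calls. The cause of the other changes was not tested. Signal over background could not be judged, as no detection calls were used here.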

Other observations

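Several bright genes with symbols not left out missed the selection only because their day 1 values overlapped those of another day, and in 12 of these 15 genes the highest day 1 value was that of pool 1. Among them were FKBP5, TSC22D3 and KLF9, known targets of the glucocorticoid receptor, and DBP, a clock-controlled transcription factor. All were picked out after their values were seen. Of the 12 tested genes of the whole glucocorticoid response list, limma called 5 higher and 0 lower on day 1 than on day -17 (5 and 4 at an unadjusted p under 0.05), with a median log2 difference of -0.12, and 1 higher and 0 lower on day 17 than on day 1, with a median of 0.26. Of the 8 tested genes of the circadian clock list, limma called 4 higher and 2 lower on day 1 than on day -17, with a median of 0.43. On day 17 against day 1 it called 1 higher and 0 lower, with a median of 0.16. TSC22D3 had signals of 4077, 1836 and 2309 on day -17, 2272, 1498 and 1171 on day 1 and 2709, 4095 and 3607 on day 17. KLF9 had signals of 2140, 1013 and 1188 on day -17, 1246, 699.7 and 799 on day 1 and 1613, 1796 and 1577 on day 17, and FKBP5 had 1035, 745 and 571 on day -17, 639, 392 and 306 on day 1 and 590.4, 1352 and 629 on day 17. In these 3 genes pool 1 was the highest on day 1 and on day -17, but not on day 17. PTHLH, the parathyroid hormone-related protein of the lactating gland, had 165, 106 and 156 on day -17, 126, 39.3 and 57.9 on day 1 and 2078, 767 and 1010 on day 17. Its day 17 values stood far above both earlier days. UBD, a ubiquitin-like modifier induced by interferon, had 554, 513 and 542 on day -17, 402, 154 and 76.3 on day 1 and 331, 342 and 170.1 on day 17.

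By limma 41 of 5670 genes (0.723%) were called both lower on day 1 than on day -17 and higher on day 17 than on day 1, and 16 of them were not among the 39. For 2 of the 16 a pool lay under the signal limit of 100: CRHR1, the receptor of corticotropin-releasing hormone, had 77.3, 71.9 and 68.9 on day -17, 6.30, 25.4 and 7.47 on day 1 and 123, 97.6 and 107 on day 17, and CA11, a carbonic anhydrase-related protein, had 72.6, 140.3 and 78.1 on day -17, 53.7, 7.45 and 9.02 on day 1 and 144, 117 and 165 on day 17. Another 3 have symbols that were left out (SLC2A4RG, SLC26A11 and IL1R1). The other 11 had shallower dips, among them SOD1 with 11416, 9074 and 11817 on day -17, 7244, 7975 and 7911 on day 1 and 13004, 10498 and 12818 on day 17 and SELENBP1, a selenium-binding protein, with 2671, 2163 and 3079 on day -17, 1980, 1695 and 1706 on day 1 and 2475, 2470 and 3021 on day 17. Among the 5576 bright probe sets with no symbol here, 60 (1.08%) met the same limits. Of these 60, 8 were called for day 17 against day -17, 4 higher and 4 lower. Of all 15519 tested probe sets 46.5% were called in that comparison. The limits leave out steady rises and falls, so that share is not like for like with the 60.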
